A study of Mus musculus with 16 samples.

Results

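The immunity-related GTPase (IRG) genes examined here are Irgm1, Irgm2, Igtp, Iigp1, Tgtp1 and Tgtp2, and the data are H3K27ac ChIP-seq peaks from mouse bone marrow-derived macrophages (BMDMs). H3K27ac is a histone acetylation mark found at active promoters and enhancers. The macrophages were grown in culture from bone marrow of C57Bl6 mice aged 8 to 12 weeks, and the labels name no transgene or deletion. The Control cells were untreated, the IFNγ cells received 100 ng/mL interferon gamma for 1 h, the PJ34 cells received the PARP inhibitor PJ34 at 20 µM, and the IFNγ+PJ34 cells ("both agents") received PJ34 from 1 h before IFNγ. PJ34 blocks PARP-1 and its relatives, which modify proteins with ADP-ribose. Each condition had 2 H3K27ac ChIP replicates and 2 input replicates, 16 samples in all, and the authors reduced the ChIP replicates of a condition to 1 peak list. No value below therefore has a replicate error and no test between conditions was possible. The comparison asks how IFNγ changed H3K27ac around these genes and whether PARP inhibition altered that.

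Peaks were assigned to the family when the summit lay within 50 kb of any annotated start site of the 6 genes, out of 21924 protein-coding genes. This took 36 of 43533 peaks in the Control list and 35 of 40708 in the IFNγ list. In the PJ34 list it took 26 of 44090, and in the IFNγ+PJ34 list 46 of 42960. Merging overlapping peaks of the 4 lists gave 45 regions out of 55218. The genes lie at 3 loci of mm10. On chromosome 11 the first locus holds Irgm1 (48861968 to 48871683, minus strand), Tgtp1 (48985327 to 48994172, minus strand) and Tgtp2 (49057194 to 49064206, minus strand). The second locus, on the same chromosome, holds Igtp (58199556 to 58207591, plus strand) and Irgm2 (58199618 to 58222782, plus strand). Iigp1 lies alone on chromosome 18 (60376027 to 60392634, plus strand). Neighbouring members shared windows, and 1 annotated start site of Irgm2 lies 30 bp from a start site of Igtp, so Irgm2 is described below at its own start sites, near position 58215008.

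IRG proteins are large GTP-binding proteins through which mouse cells attack pathogens that live inside vacuoles, such as Toxoplasma, and they are among the most strongly IFNγ-inducible proteins of macrophages. Iigp1 (Irga6), Tgtp1 and Tgtp2 (Irgb6) are effectors that load onto the vacuole, while Irgm1, Irgm2 and Igtp (Irgm3) sit on the cell's own membranes and keep the effectors inactive there. IFNγ signals through the kinases Jak1 and Jak2 to transcription factors that bind the GAS element, while the related ISRE element is bound by interferon regulatory factors. H3K27ac at an IRG promoter or at a nearby enhancer is a usual mark of that gene's activity.

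The promoters are shown first because 4 of them carried the same arrangement of both elements. RefSeq promoter windows on GRCm38.p6, from 250 bp before to 50 bp after a start site, matched 5 of the 6 members: Irgm1, Irgm2, Igtp, Tgtp1 and Tgtp2. Iigp1 was not matched. GAS was searched as TTCNNNGAA and ISRE as GAAANNGAA, on both strands, and matches of the 2 motifs did not overlap in these windows, although the 2 ISRE matches of Irgm1 overlap each other. Each line gives a stretch before the RefSeq start site, read 5′ to 3′ on the gene's strand, with both motifs in capitals. The stretches are chr11:48871421-48871450 for Irgm1, chr11:58214857-58214964 for Irgm2, chr11:58199436-58199543 for Igtp, chr11:48992259-48992366 for Tgtp1 and chr11:49064225-49064332 for Tgtp2.
Irgm1: GAAATAGAAACCGAAactgattctcaattc
Irgm2: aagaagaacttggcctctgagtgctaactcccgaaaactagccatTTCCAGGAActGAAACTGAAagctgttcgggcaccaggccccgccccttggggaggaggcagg
Igtp: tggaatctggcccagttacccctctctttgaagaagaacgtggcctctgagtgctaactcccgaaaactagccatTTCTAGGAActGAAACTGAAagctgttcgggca
Tgtp1: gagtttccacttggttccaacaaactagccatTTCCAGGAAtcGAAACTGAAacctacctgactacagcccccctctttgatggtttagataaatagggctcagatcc
Tgtp2: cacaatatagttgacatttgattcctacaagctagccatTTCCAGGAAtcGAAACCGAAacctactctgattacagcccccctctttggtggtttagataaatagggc

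An ISRE match was present in 5 of 5 matched promoters, against 8.56% of 32851 RefSeq promoter windows. A GAS match was present in 4 of 5, with Irgm1 as the exception, against 8.30% of all windows. A control motif with the ends of GAS exchanged, GAANNNTTC, was present in 0 of 5 against 6.84%. In Irgm2, Igtp, Tgtp1 and Tgtp2 the GAS match was followed after 2 bp by the ISRE match, an arrangement searched for after the sequences had been seen. It was found in 8 of all 32851 windows (0.0244%), those of Igtp, Irgm2, Tgtp1, Tgtp2, the family gene Gm12185, Adar (an RNA-editing deaminase), Olfr382 and LOC115488470. The members are paralogs with related promoters, so these matches are not independent of each other. Over the 300 bp windows, Igtp and Irgm2 were 73.5% identical and Tgtp1 and Tgtp2 67.7%, while the other pairs ranged from 46.4% to 53.9%. Relative to the start site the GAS match began at −75 in Irgm2, −45 in Igtp, −88 in Tgtp1 and −81 in Tgtp2, and the 2 ISRE matches of Irgm1 began at −30 and −24. With windows of 500 bp either side, GAS was present in 5 of 5 members against 24.98% of all windows, and ISRE in 5 of 5 against 25.9%.

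**Figure D1:**
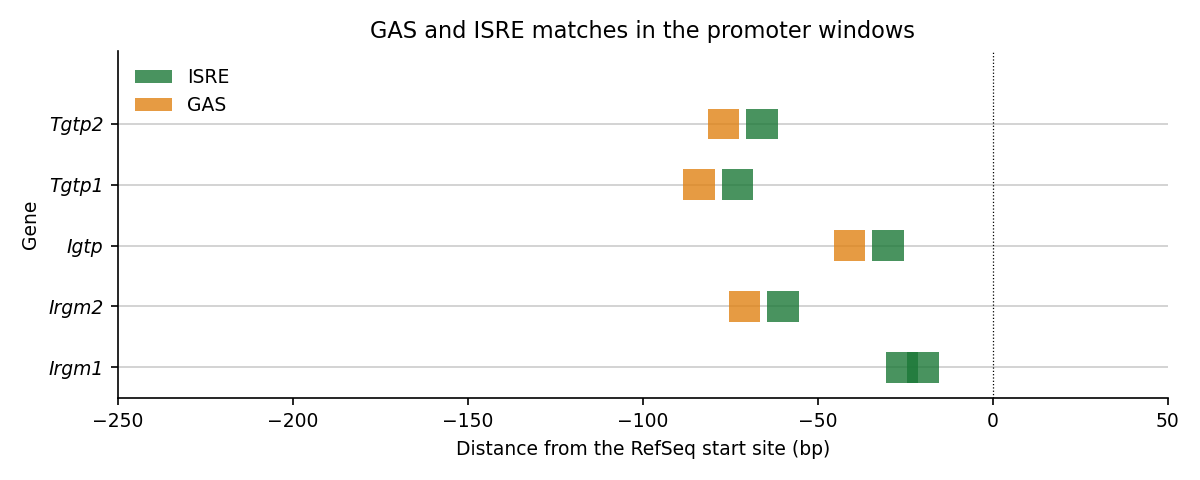
GAS (orange) and ISRE (green) matches in the RefSeq promoter windows of 5 IRG genes, with distance from the start site in bp on the horizontal axis and 1 line per gene. Irgm2, Igtp, Tgtp1 and Tgtp2 each show a GAS match with an ISRE match 2 bp downstream, and Irgm1 shows 2 overlapping ISRE matches.

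The same arrangement was also found within H3K27ac regions. Sequence outside these regions and the promoter windows was not searched. Across 53687 merged regions whose sequence was searched, it occurred 31 times, and 6 of these matches were in the 41 searched regions near IRG genes. Of the others, 2 were at Gm12185, and further matches lay within 1 kb of a start site of Adar, Parp14, Gpatch1, Arf3 and Arhgef6. Besides the 4 promoters, the family matches were at the upstream start site of Tgtp1 (chr11:48994207-48994306, minus strand) and in an intron of the family gene Ifi47, 17.3 kb upstream of Tgtp2 (chr11:49081515-49081614, minus strand). Both are printed with the motifs in capitals because their surroundings resemble those of the Tgtp1 and Tgtp2 promoters.
Tgtp1 upstream start: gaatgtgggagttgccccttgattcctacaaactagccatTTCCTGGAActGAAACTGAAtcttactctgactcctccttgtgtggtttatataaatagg
Ifi47 intron: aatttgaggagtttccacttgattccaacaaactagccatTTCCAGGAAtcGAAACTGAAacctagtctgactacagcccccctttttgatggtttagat

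Over whole regions, the 41 searched family regions, without those of Iigp1, held 0.694 ISRE matches per kb against 0.400 in all searched regions. GAS matches stood at 0.440 per kb against 0.340. These family counts, 41 ISRE and 26 GAS matches, include those of the 6 paired matches described above. The densities are therefore not separate evidence from that arrangement. The control motif stood at 0.169 per kb against 0.255. A match is a run of letters and no binding was measured.

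Some of these genes exist in near-identical copies, which matters because the authors kept uniquely mapped reads. The share of 36-base words that occur once in the genome was taken 1 kb either side of the most 5′ annotated start site. It was 100% for Irgm1, 82.2% for Irgm2 at its own start sites, 78.6% for Igtp, 75.5% for Tgtp1, 71.3% for Iigp1 and 28.0% for Tgtp2. The median over 1637 chromosome 11 genes was 99.4%, and 22 of them (1.34%) were below 50%. With 50-base words the share was 37.3% for Tgtp2 and 90.6% for Tgtp1. The downstream start site of Tgtp1 alone had 49.3% with 36-base words, and that of Iigp1 had 70.3%. Values for Tgtp2 and for the regions 12.4 to 14.6 kb downstream of Tgtp1 and Tgtp2, of which the 4 had between 15.1% and 17.4% unique 36-base words, are therefore uncertain, since reads of near-identical copies could have been dropped or split.

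At the promoters, defined as 1 kb either side of a start site, IFNγ was accompanied by higher H3K27ac enrichment at all 5 members with a peak in both lists, and by new peaks at the sixth, Tgtp1. A promoter peak was listed for 5 of 6 members in Control, 6 in IFNγ, 4 in PJ34 and 6 with both agents. Over all protein-coding genes the shares were 51.7%, 50.2%, 51.6% and 50.7%. Fold enrichment is the authors' ratio of ChIP to local background at the peak. Score percentile is the rank of the peak's score within its own list, from 0 for the lowest to 100 for the highest. Unlabelled runs of 4 values follow the order Control, IFNγ, PJ34 and IFNγ+PJ34. Ratios of fold enrichment between lists were centred on the median over all genes with a promoter peak in both lists, because that median was 0.750 for IFNγ over Control and 0.781 for IFNγ+PJ34 over PJ34.

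Irgm1, the membrane-bound regulator that restrains the effectors, had the widest and highest-ranked promoter peak of the 6 members. Its fold enrichment was 62.1 in Control and 50.7 in PJ34, against 92.7 in IFNγ and 117 with both agents. Its score percentiles were 97.9 in Control and 96.5 in PJ34, against 99.97 in IFNγ and 99.99 with both agents, so with IFNγ it stood at the very top of both lists. The peak spanned 4861 bp in Control and 4662 bp in PJ34, against 5364 bp in IFNγ and 6408 bp with both agents. After centring, IFNγ over Control was 1.99 times, higher than 95.1% of 10862 genes, and IFNγ+PJ34 over PJ34 was 2.95 times, higher than 96.6% of 10877 genes. PJ34 over Control was 0.884 times, near the middle of the genes.

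Irgm2, another regulator of the same subfamily, was ordered like Irgm1 at its own promoter. Fold enrichment was 37.0 in Control and 32.1 in PJ34, against 46.3 in IFNγ and 56.9 with both agents, with score percentiles of 90.1, 89.5, 95.8 and 98.3 in the same order. Both lists with IFNγ stood above both lists without it. Centred ratios were 1.67 for IFNγ over Control and 2.27 for IFNγ+PJ34 over PJ34, the latter higher than 93.4% of genes.

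Igtp, the remaining regulator, departed from this order. Fold enrichment was 46.1 in Control and 44.1 in PJ34, against 55.5 in IFNγ and 25.9 with both agents, the lowest of the 4 lists. Its score percentiles were 92.6 in Control and 93.3 in PJ34, against 97.5 in IFNγ and 97.6 with both agents, so by rank the IFNγ+PJ34 peak matched the IFNγ peak. The −log10 p was 339 and 343 without IFNγ, 393 in IFNγ and 295 with both agents, and the peak was widest, at 2456 bp, in IFNγ+PJ34. By fold enrichment IFNγ+PJ34 over IFNγ was 0.484 times after centring, lower than all but 5.62% of 10771 genes, while the score percentile differed by 0.0862. The fold and the rank thus gave different orders at this promoter.

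Iigp1, an effector that coats vacuoles, had the largest ratio of IFNγ to Control among the 5 members with a promoter peak in both lists. At its best promoter peak fold enrichment was 3.27 in Control, 16.4 in IFNγ and 18.2 in IFNγ+PJ34, and no peak was listed in PJ34. Score percentiles were 11.5 in Control, 79.0 in IFNγ and 79.2 in IFNγ+PJ34. The IFNγ over Control ratio was 6.68 times after centring, higher than 99.96% of genes. These peaks were at the downstream start site (position 60382683). The upstream start sites, near 60376027, had 2 peaks in IFNγ and 2 in IFNγ+PJ34, with none in Control or PJ34, and their best fold enrichments were 7.09 and 6.39. No H3K27ac peak at all was listed within 50 kb of Iigp1 in PJ34, against 3 in Control, 4 in IFNγ and 4 in IFNγ+PJ34. The 3 Control peaks were weak, with fold enrichments from 2.93 to 3.27, so their absence from the PJ34 list concerns peaks close to the calling threshold. A promoter peak in every list but PJ34 was found for 31 of 21924 genes (0.141%), Iigp1 among them.

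Tgtp1, an effector of the Irgb6 pair, had promoter peaks in IFNγ and IFNγ+PJ34 and in neither list without IFNγ. The IFNγ list held 4 promoter peaks and the IFNγ+PJ34 list 2. Fold enrichment of the best peak was 7.37 in IFNγ and 12.0 in IFNγ+PJ34, with score percentiles of 58.4 and 67.8. This presence pattern was found at the promoters of 39 of 21924 genes (0.178%). Both best peaks were at the upstream start site (position 48994172), whose GAS and ISRE matches are printed above, and a second region at the downstream start sites had fold enrichments of 5.44 and 6.34.

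Tgtp2, the other gene of the pair, already had a promoter peak without IFNγ. Fold enrichment was 18.2 in Control and 8.41 in PJ34, against 34.3 in IFNγ and 37.3 with both agents, with score percentiles of 75.9, 71.6, 92.0 and 93.4 in the same order. By these values the lists with IFNγ stood at more similar levels than the lists without it, but not by width. The promoter peak spanned 1566 bp in Control and 1106 bp in PJ34, against 2894 bp in IFNγ and 1575 bp with both agents. Outside the IFNγ list, this region was split into more than 1 peak. IFNγ over Control was 2.52 times after centring, higher than 98.3% of genes. IFNγ+PJ34 over PJ34 was 5.69 times, higher than 99.5% of genes. PJ34 over Control was 0.501 times, higher than 4.62% of genes. With 28.0% of unique 36-base words, this promoter had the least unique sequence of the family.

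**Figure D2:**
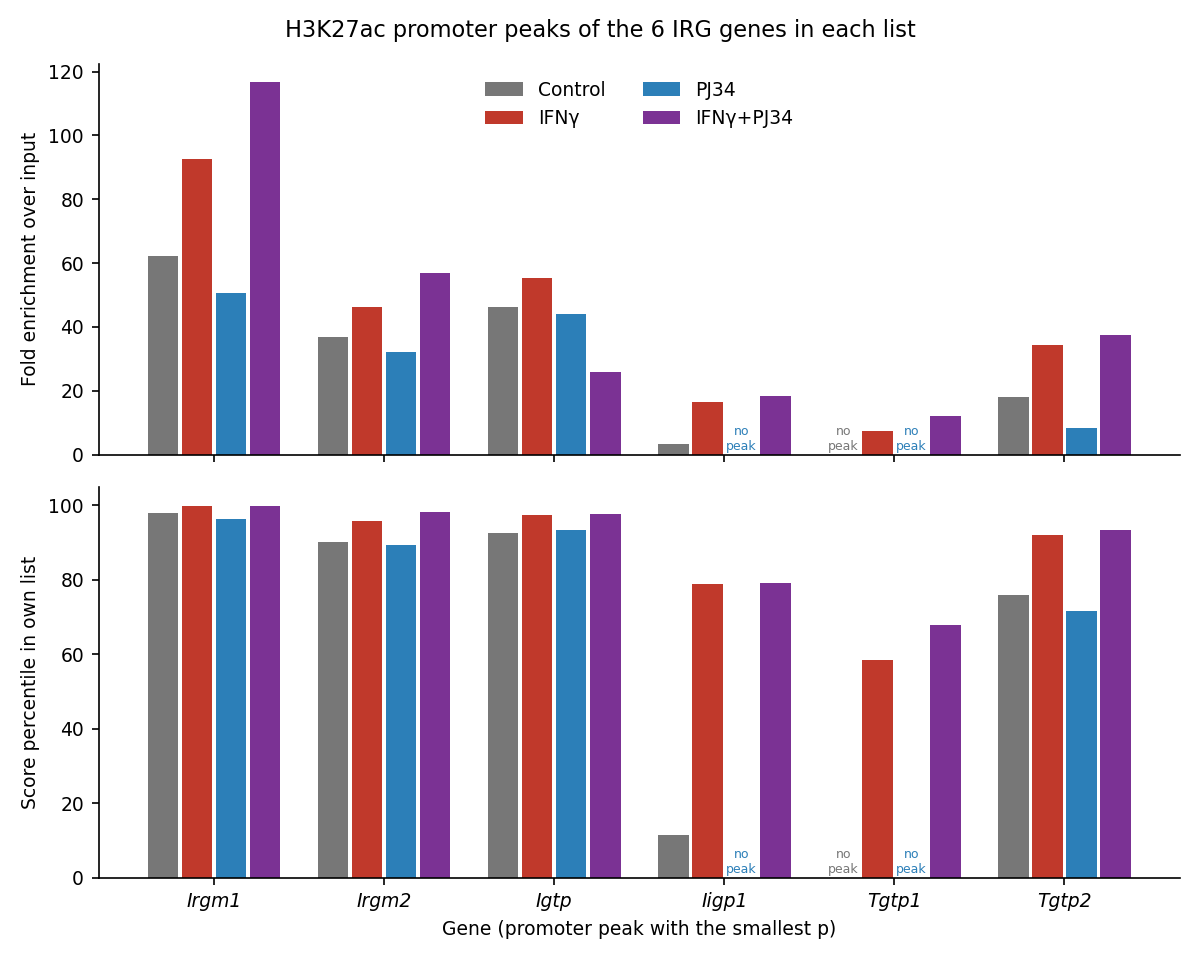
Promoter H3K27ac peaks of the 6 IRG genes in the 4 lists, as fold enrichment over input (upper panel) and as score percentile within the list (lower panel), with Irgm2 at its own start sites. Each bar is 1 list made from 2 replicates, so there are no error bars. IFNγ bars are above Control bars for all 5 genes with both, Tgtp1 has no bar without IFNγ, Iigp1 has none in PJ34, and Igtp is the gene whose IFNγ+PJ34 fold enrichment (25.9) is the lowest of its 4.

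For IFNγ+PJ34 against IFNγ, the promoters differed little in rank, and Irgm1 and Igtp were already near the top of the scale. The score percentile was higher in IFNγ+PJ34 for 6 of 6 members, against 40.6% of 10771 genes, by 0.0165 for Irgm1, 0.0862 for Igtp, 0.218 for Iigp1, 1.42 for Tgtp2, 2.53 for Irgm2 and 9.42 for Tgtp1. By −log10 p, not centred, the order differed. From IFNγ to IFNγ+PJ34 it fell from 900 to 822 for Irgm1, 393 to 295 for Igtp, 73.7 to 70.7 for Iigp1 and 207 to 184 for Tgtp2. It rose from 307 to 331 for Irgm2 and from 21.7 to 37.0 for Tgtp1. Centred fold ratios were above 1 for 5 of 6. They were at least 1.5 times higher for Tgtp1 alone (1.69 times) and at least 1.5 times lower for Igtp alone, against 19.9% and 18% of all genes. For IFNγ against Control, 5 of 5 were at least 1.5 times higher, against 15.7% of genes, and without centring this was 2 of 5, Iigp1 and Tgtp2. For IFNγ+PJ34 against PJ34, 3 of 4 were at least 1.5 times higher, against 20.6% of genes, with Igtp the exception at 0.752 times. The comparisons share lists with each other and are not separate evidence.

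Beyond the promoters, the top-ranked region near Igtp and Irgm2 was distal in 3 of the 4 lists. A region 15.4 kb upstream of Igtp (chr11:58182837-58186062), in intergenic sequence, had a fold enrichment of 47.2 in Control, 29.7 in IFNγ, 10.96 in PJ34 and 70.1 with both agents. Its score percentiles were 93.3, 98.3, 81.6 and 99.9 (Control, IFNγ, PJ34, IFNγ+PJ34). By rank the lists with IFNγ were the higher, while by fold enrichment Control was above IFNγ. In Control, IFNγ and IFNγ+PJ34 it ranked above both promoters, and in PJ34 the Igtp promoter ranked first.

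A region 14.6 kb downstream of the Irgm1 start (chr11:48855094-48858516, intergenic) differed in both height and extent. Its highest fold enrichment was 4.48 in Control and 5.82 in PJ34, against 9.15 in IFNγ and 12.3 with both agents. By score percentile it stood at 36.8 in Control and 52.9 in PJ34, against 75.4 in IFNγ and 72.9 with both agents. The main peak was 974 bp wide in Control and 1835 bp in IFNγ, and in IFNγ+PJ34 a single peak of 3423 bp covered the whole region. A region 5.71 kb upstream of Igtp (chr11:58193369-58194385, intergenic) was listed in IFNγ and IFNγ+PJ34 alone, with fold enrichments of 5.29 and 5.59. A region 4.01 kb upstream of Tgtp2 (chr11:49067777-49068967) was listed in IFNγ+PJ34 alone with a fold enrichment of 13.7 and a score percentile of 72.1, the highest of the regions in a single list. From IFNγ to IFNγ+PJ34, the largest rise in score percentile, 42.7, was 9.72 kb downstream of an Irgm2 start (chr11:58223686-58225720, intergenic). Fold enrichments there were 7.54 in Control, 3.80 in IFNγ, 4.51 in PJ34 and 14.2 with both agents. Score percentiles were 55.9, 29.9, 38.2 and 72.5 in the same order, with IFNγ the lowest list.

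Several strong regions belonged to other genes of the family that lie near the members. Ifi47 encodes another IRG protein. The stronger region over its start sites had fold enrichments of 41.5 in Control, 37.9 in IFNγ, 21.7 in PJ34 and 71.5 with both agents. Its score percentiles were 92.6, 97.1, 87.2 and 99.6. The intronic Ifi47 region that holds the printed GAS and ISRE matches had 18.4, 15.8, 10.2 and 44.1 in the same order, with score percentiles of 77.0, 85.2, 72.0 and 96.3. In both of these, IFNγ+PJ34 was the highest list and PJ34 the lowest. Another region at an Ifi47 start site (chr11:49075550-49077389) had 16.7, 18.7, 7.04 and 17.9, with score percentiles of 75.9, 82.7, 59.9 and 82.2. At that region IFNγ was the highest list by both measures and PJ34 the lowest. The promoter region of Gm5431, 30.2 kb upstream of Irgm1, had 46.0, 70.0, 26.2 and 46.1, with score percentiles of 96.0, 99.0, 88.2 and 99.3. There IFNγ was the highest list by fold enrichment and IFNγ+PJ34 by rank. A member was the nearest protein-coding gene for 11 of 36 peaks in Control, 15 of 35 in IFNγ, 8 of 26 in PJ34 and 16 of 46 with both agents. The other peaks were nearer to Trim7, Gm5431, Olfr56, 9930111J21Rik1, 9930111J21Rik2, Ifi47, Olfr1396, Gemin5, Mrpl22, Gm12184 or Gm12185.

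**Figure D3:**
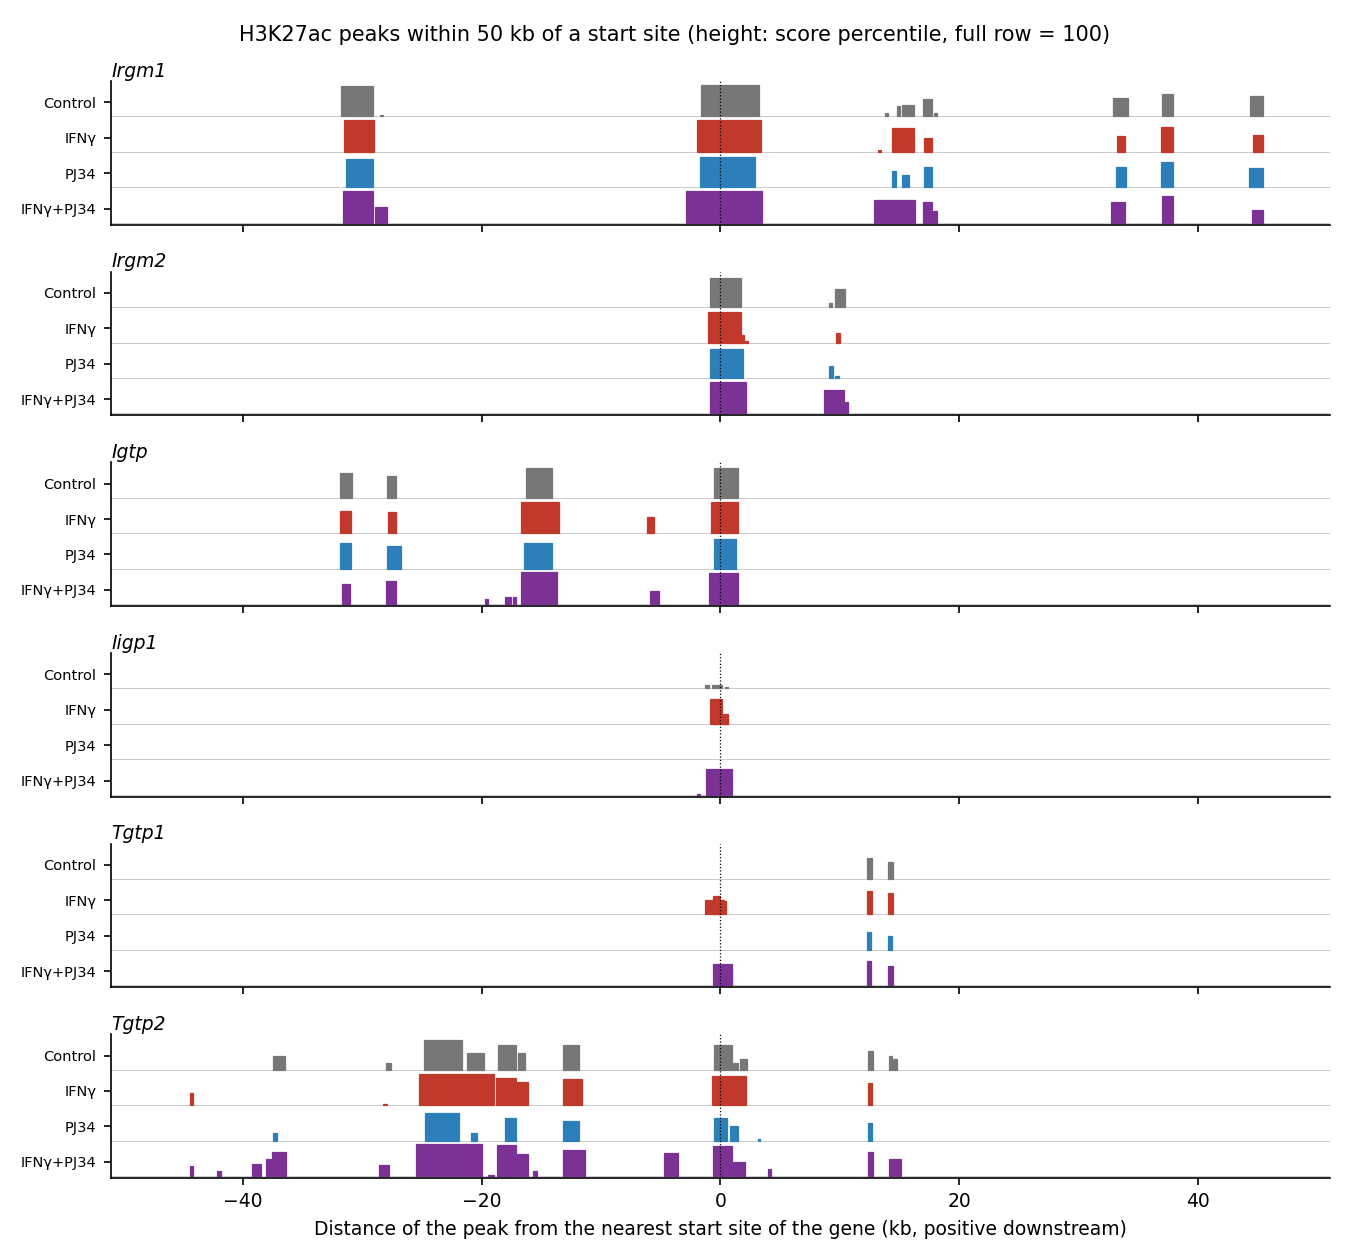
H3K27ac peaks within 50 kb of the IRG start sites, with each peak drawn to scale at its distance in kb from the nearest start site of the nearest member and its height giving the score percentile within its list. The 4 rows of a gene are the lists. Tgtp1 has no peak at its start sites in Control or PJ34, Iigp1 has no peak in PJ34, and the region 15.4 kb upstream of Igtp is present in every list.

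Counting presence over the 45 regions, weak peaks included, the family was most completely covered in IFNγ+PJ34. Of the 45, 27 (60.0%) were present in Control, 30 (66.7%) in IFNγ, 22 (48.9%) in PJ34 and 43 (95.6%) with both agents. Over all 55218 regions these shares were 69.3%, 57.4%, 65.2% and 61.9%. The covered length was 38.6 kb in Control and 30.2 kb in PJ34, against 44.9 kb in IFNγ and 58.4 kb with both agents, whereas over the whole lists it was largest in Control, at 52.6 Mb, followed by PJ34 at 47.9 Mb, IFNγ+PJ34 at 44.1 Mb and IFNγ at 42.5 Mb. The family thus ran against the lists as a whole, which had more regions in Control than in either IFNγ list.

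Of the 45 regions, 20 (44.4%) were in all 4 lists, against 38.9% of all regions. The pattern of presence in IFNγ and IFNγ+PJ34 alone held 6 regions (13.3%, exact Clopper-Pearson 95% interval 5.05% to 26.8%) against 2.29% of all regions. They were 2 at the Tgtp1 promoter, 2 at the upstream Iigp1 start sites, 1 upstream of Igtp and 1 in sequence 44.3 kb upstream of Tgtp2. Presence in every list but PJ34 held 3 regions (6.67%) against 1.52%, at Iigp1 and near Ifi47. A further 10 regions (22.2%, 11.2% to 37.1%) were in IFNγ+PJ34 alone, against 10.4% of all regions. Most of these were weak, with fold enrichments of 3.12 to 4.03 and score percentiles of 3.47 to 21.9. The highest stood at 72.1. In Control alone there were 0 of 45 (interval 0 to 7.87%), against 11.8%. The intervals cover counting error only, and neighbouring regions are not independent.

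**Figure D4:**
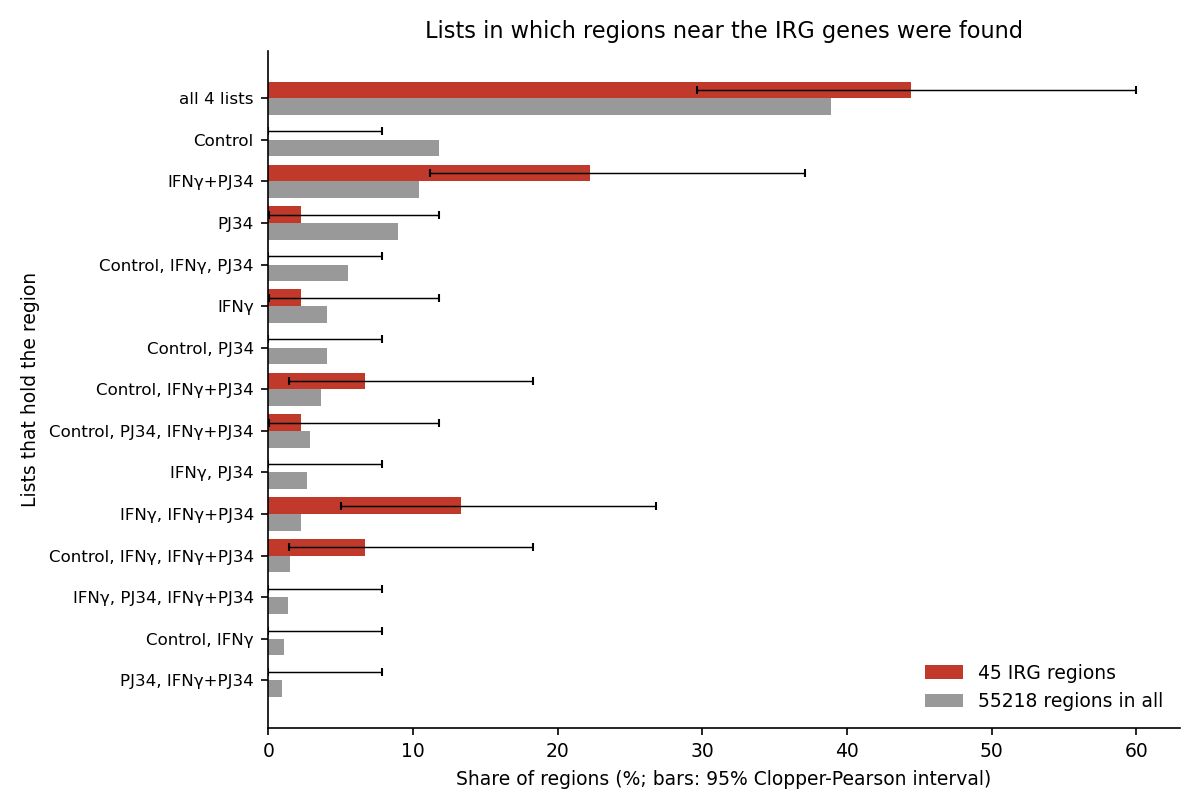
Share of regions, in percent, by the lists that hold them, for the 45 regions near IRG genes (red, with 95% Clopper-Pearson intervals) and all 55218 regions (grey). The red bar is above the grey bar for IFNγ with IFNγ+PJ34 (13.3% against 2.29%) and for IFNγ+PJ34 alone (22.2% against 10.4%), and is at 0 for Control alone.

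By peaks, the IFNγ list held a site absent from Control within 50 kb of each of the 6 members, against 28.1% of all genes, and within 10 kb of 4 of them. The share of all genes is for 50 kb at the main settings and is not given for the others used here. Among the receptor and signalling genes described below, all but Stat2 also had such a peak within 50 kb. Of the 35 IFNγ peaks near the family, 11 (31.4%, 16.9% to 49.3%) were absent from Control, against 16.8% of all IFNγ peaks. There were 4 near Tgtp1, 3 near Igtp and Irgm2, which share them, 2 near Iigp1, 1 near Irgm1 and 1 near Tgtp2. The peak near Irgm1 was weak, at a score percentile of 4.54, and with a threshold of q under 0.01, with the higher-scoring 50% of each list or with peaks up to 1 kb apart taken as shared, 5 members had such a peak. In the reverse direction, 8 of 36 Control peaks (22.2%) were absent from IFNγ, against 31.7% of all Control peaks. Of the 11 gained peaks, 10 were also in IFNγ+PJ34 and 0 were in PJ34. Of the 6842 gained peaks of the whole IFNγ list, 2654 were in IFNγ+PJ34 and 2981 in PJ34. The exception among the 11 was a weak intronic peak of Irgm2 (chr11:58201204-58201583, fold enrichment 3.43).

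The PJ34 list held the fewest peaks around the family. Of the 26 PJ34 peaks, 2 (7.69%) were absent from Control, against 19.5% of all PJ34 peaks, and 12 of 36 Control peaks (33.3%) were absent from PJ34, against 25.1%. The intervals of these shares, 0.946% to 25.1% and 18.6% to 50.97%, include the shares over all peaks.

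With both agents, nearly all IFNγ peaks were found again. Of the 35 IFNγ peaks, 1 (2.86%, 0.0723% to 14.9%) was absent from IFNγ+PJ34, against 24.1% of all IFNγ peaks. Conversely, 15 of 46 IFNγ+PJ34 peaks (32.6%) were absent from IFNγ, against 27.2%. Against PJ34, 24 of 46 IFNγ+PJ34 peaks (52.2%, 36.9% to 67.1%) were absent, compared with 25.7% of all IFNγ+PJ34 peaks, and 1 of 26 PJ34 peaks (3.85%) was absent from IFNγ+PJ34, compared with 31.6%. Near the family, the peaks of the IFNγ list were almost a subset of those of IFNγ+PJ34.

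Among regions present in both lists, fold enrichment showed the same contrast. Log2 ratios of the highest fold enrichment were centred on the median over all such regions. For IFNγ over Control the median of 23 family regions was 0.53 (95% interval of the median −0.00 to 0.94). At least 1.5 times higher were 11 of the 23, against 20.7% of all regions, and at least 1.5 times lower were 2, against 20.7%. For PJ34 over Control the median of 21 regions was −0.19, with 1 higher (16.9% of all regions) and 7 lower (19.5%). For IFNγ+PJ34 over IFNγ the median of 29 regions was 0.15 (−0.06 to 0.42), with 7 higher against 24% of all regions. For IFNγ+PJ34 over PJ34 the median of 21 regions was 1.15 (0.55 to 1.64), with 15 higher against 26.9%. Without centring the median for IFNγ over Control was 0.17 (−0.37 to 0.58). These intervals describe the spread among the family regions, and neighbouring regions are not independent. They hold no replicate error and are not a test between conditions. The quartiles of all regions were −0.56 and 0.64 for IFNγ+PJ34 over PJ34, and −0.47 and 0.48 for IFNγ over Control.

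**Figure D5:**
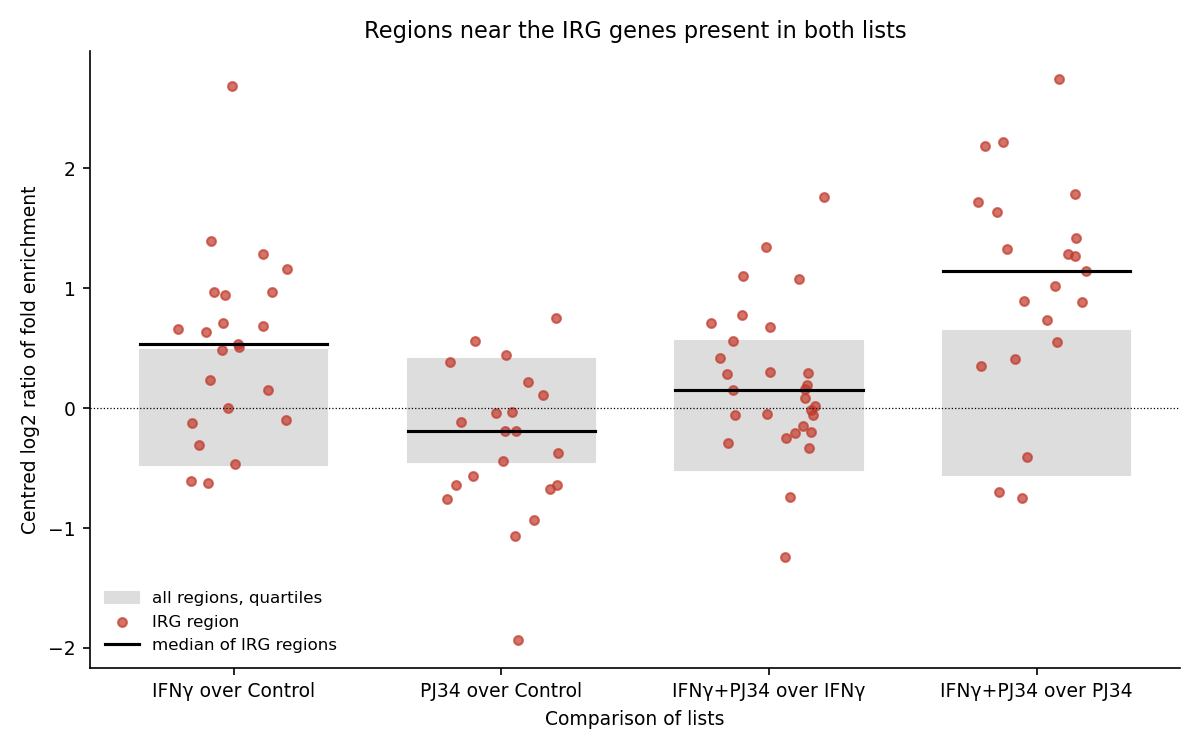
Centred log2 ratio of fold enrichment for each IRG region present in both lists of a comparison (red points), with the median of the IRG regions as a black line and the quartiles of all regions as a grey box. The black line is at 0.53 for IFNγ over Control, −0.19 for PJ34 over Control, 0.15 for IFNγ+PJ34 over IFNγ and 1.15 for IFNγ+PJ34 over PJ34. It lies above the grey box for IFNγ over Control, narrowly, and for IFNγ+PJ34 over PJ34.

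The wider family and the machinery around it were read the same way. Of 10 other IRG family genes, several of which lie within the windows of the members, 6 had a promoter peak in Control, 7 in IFNγ, 6 in PJ34 and 7 with both agents. The gene that differed was Gm12185, which had a peak with a fold enrichment of 5.44 in IFNγ and 6.34 in IFNγ+PJ34 and none in the other lists. Its best peaks are those of the downstream Tgtp1 region, where a transcript of Gm12185 also starts. Gm4951, outside the windows of the members, had 18.4, 23.5, 13.6 and 28.3 in the order Control, IFNγ, PJ34, IFNγ+PJ34. An IFNγ peak absent from Control lay within 50 kb of 6 of the 10, against 28.1% of all genes, and several of these genes share the members' peaks.

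The receptor and signalling genes were marked in every list, with differing orders of the lists. All 8 genes examined (Ifngr1, Ifngr2, Jak1, Jak2, Stat2, Irf1, Irf8 and Irf9) had a promoter peak in each list. Their median score percentile was 97.5 in Control and 95.9 in PJ34, against 97.4 in IFNγ and 97.3 with both agents. For the 6 members, with Irgm2 at its own promoter and an absent peak counted as 0, it was 83.0, 93.9, 80.6 and 95.5 (Control, IFNγ, PJ34, IFNγ+PJ34). Irf8, a transcription factor of the macrophage lineage, had a fold enrichment of 28.6 in Control, 51.8 in IFNγ, 14.9 in PJ34 and 32.6 with both agents, so both lists with IFNγ were above both lists without it, as for Irgm1. Ifngr1, a subunit of the IFNγ receptor, had 76.1, 24.9, 41.6 and 44.5, with Control the highest. The 11 genes of the ubiquitin-like conjugation system of autophagy, which guides IRG proteins to vacuoles, also had promoter peaks in every list, with median percentiles of 91.1, 93.9, 93.7 and 95.5.

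The genes whose promoter score percentiles across the 4 lists were closest to the median of the members, by Euclidean distance over the 4 values and with Irgm2 taken at the best of all its promoter peaks, in 3 lists that of Igtp, were Il18bp (distance 3.18), Psen2 (3.25), Bco2 and Il18 (3.37 each, through the same peak) and Manba (3.50). Il18bp, which encodes a secreted inhibitor of the cytokine interleukin 18, had percentiles of 85.9 in Control, 96.1 in IFNγ, 81.8 in PJ34 and 97.7 with both agents. As a check of the cell type, all 6 macrophage markers examined (Csf1r, Adgre1, Cd68, Spi1, Lyz2 and Itgam) had promoter peaks in every list. Their median score percentile was 98.7 in Control and 95.4 in PJ34, against 92.4 in IFNγ and 93.4 with both agents, and the fold enrichment of Csf1r, the receptor for a macrophage growth factor, was 98.5, 28.0, 40.2 and 42.9. By their median these marker promoters stood highest in Control, unlike the median of the members, and the part of this shift in the IRG values was not tested. Of 7 markers of other cells, 2 had a promoter peak in Control, 3 in IFNγ, 2 in PJ34 and 2 with both agents, and these were Pecam1, Siglecf and Cd3e. Pecam1 had score percentiles of 98.3, 97.0, 94.7 and 99.5, above the macrophage marker median in both lists with IFNγ. Siglecf had 76.6 in Control, 4.54 in IFNγ and 38.2 in PJ34, and Cd3e had 38.4 in IFNγ and 35.5 with both agents. The purity of the culture was not tested.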

How the data were processed

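H3K27ac ChIP-seq and input libraries of BMDMs were prepared by the authors from 2 replicates per condition. Per their methods, reads were aligned to mm10 with Bowtie, uniquely mapped reads were kept with Samtools and Picard, and MACS called peaks in each replicate against input at p 0.01. Peaks overlapping in both replicates formed 1 list per condition. The deposited lists give a score, a fold enrichment (a ratio to local background), −log10 p and −log10 q per peak, as the authors' caller wrote them. They hold no read counts, so depth is unknown, and absence means that no peak passed in both replicates.

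Sample groups came from the titles. Lists were compared with bedtools 2.31.1 (overlap of at least 1 bp), pandas 2.3.3 and scipy 1.17.1, with start sites from GENCODE M21 and sequence from RefSeq GRCm38.p6. A promoter peak of a gene is the one with the smallest p. Shares have exact Clopper-Pearson 95% intervals, and medians have order-statistic intervals. No p-values were computed. The functions were tested on 2000 simulated peaks and recovered 6 of 6 planted answers. The members and gene lists were chosen with earlier results of these data known. Named were all members with their promoter peaks, some of the regions missing from a list, some of the regions with large shifts and the 5 nearest genes. The other list genes and regions were named after their values were seen. Some genes of the lists are not reported here.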

Additional observations from a re-analysis of the deposited data

Results flagged for a closer look

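Among the 45 regions, 3 were present in Control and IFNγ+PJ34 and absent from IFNγ and from PJ34, so that the IFNγ list lacked them where Control had them, and the IFNγ+PJ34 list had them where PJ34 lacked them. The first begins at position 48853221 of chromosome 11, 17.95 kb downstream of the Irgm1 start, with fold enrichments of 2.87 in Control and 4.52 in IFNγ+PJ34. The second begins at 48899586, upstream of Irgm1 and in an intron of Gm5431, with 2.73 and 6.17. The third begins at 49049115, downstream of Tgtp2, with 5.63 and 6.16, in sequence of which 17.0% of 36-base words are unique. The difference was not tested, since each condition has 1 list.

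The Igtp promoter peak had a centred log2 ratio of fold enrichment of 0.68 for IFNγ over Control and −0.41 for IFNγ+PJ34 over PJ34. These are opposite directions, and the difference was not tested. Score percentile was higher with IFNγ in both comparisons, by 4.91 and 4.25.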

How the results depend on the processing

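Over 161 recomputed values of 25 results, 144 stayed within the interval of the value reported, or within 1.5 times a count, 17 moved, and 0 reversed. Within 10 kb there were 11, 16, 8 and 15 peaks in Control, IFNγ, PJ34 and IFNγ+PJ34, and 56.3% of the IFNγ peaks were absent from Control. Within 100 kb there were 53 IFNγ and 43 PJ34 peaks. Keeping the higher-scoring 50% of each list left 21, 23 and 27 peaks in Control, IFNγ and IFNγ+PJ34, and 9.52% of the Control peaks were absent from IFNγ. These counts follow from the narrower or wider selection. With peaks up to 1 kb apart taken as shared, the absent share was 8.33% for Control peaks in IFNγ, 0% for PJ34 peaks in Control, 0% for IFNγ peaks in IFNγ+PJ34 and 32.6% for IFNγ+PJ34 peaks in PJ34. The shares over all peaks are not given at these changed settings. The recomputed shares therefore do not compare the family with the whole lists. With −log10 p in place of fold enrichment, the median centred log2 ratio was 0.95 for IFNγ over Control and 1.76 for IFNγ+PJ34 over PJ34, the cause of which was not tested. No paired analysis was possible because the authors merged the replicates into 1 list per condition, so leaving out a replicate was also not possible. Depth is unknown, so an absent peak may be one that was not detectable.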
